A study of Mus musculus with 6 samples.

Results

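The colony-stimulating factors and the interleukin-1 family were read out in 4T1, a cell line derived from a mouse mammary carcinoma. Of the 56448 genes in the deposited table, 10 were chosen by symbol: the growth factor genes Csf1, Csf2 and Csf3, the cytokine genes Il1a, Il1b, Il33 and Il18, the antagonist gene Il1rn, the receptor gene Il1r1 and the co-receptor gene Il1rap. The series describes a stable knockdown of miR-9, made with a lentivirus and set against a control. The label in9 is carried by 3 libraries and the label LV2 by 3, all made from total RNA of cells grown in medium with fetal bovine serum and sequenced as mRNA. Both names are given as a genotype without being spelled out, and the labels do not say which is the control, so differences are given as in9 minus LV2. All 6 libraries carry 4T1 as their cell line, and the labels do not say whether a group was 1 clone or a pool of infected cells. No label states that the 3 libraries of a group are separate cultures, and p-values therefore reflect only how far these libraries spread, which may be technical.

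Values were TPM, a transcript level corrected for gene length and scaled so that every library has the same total, and genes can be compared with each other. Sequencing depth cannot be read from TPM and is unknown. The number of genes above 0 per library was 20123 to 20538. On the first principal component in9 replicate 1 lay at -2.68, apart from the other in9 libraries at 26.05 and 27.81, while LV2 libraries lay between -22.19 and -6.98. Of 11 mammary epithelial markers 9 were tested, 3 with a positive and 6 with a negative estimate, and none was called in limma in either direction. Before adjustment, 1 was higher and 2 were lower at p under 0.05, where 13.6% and 5.86% of all tested genes were. The keratin gene Krt8 was at 864.71 to 887.18 TPM in in9 and 914.31 to 941.2 TPM in LV2, and the receptor gene Pgr was listed at 0. The smallest p was that of the adhesion gene Epcam, at 36.9 ± 1.14 TPM in in9 and 45.8 ± 1.9 TPM in LV2 (-0.30 ± 0.05 SE, adjusted p = 0.0633), while the E-cadherin gene Cdh1 was at 141 ± 9.94 TPM in in9 and 124 ± 6.12 TPM in LV2 (0.19 ± 0.07, adjusted p = 0.201). Without in9 replicate 1 Epcam was called lower and Cdh1 higher, with adjusted p-values of 0.0299 and 0.0421 in limma. In that fit 3.68% of all tested genes were called lower and 6.77% higher. The pan-leukocyte gene Ptprc reached at most 0.12 TPM, and the macrophage gene Adgre1, the neutrophil gene Ly6g and the adaptor gene Tyrobp were listed at 0 in all 6 libraries. Of 14 leukocyte markers only Cd68, Cd14 and S100a8 had a mean of at least 1 TPM, and the other 11 summed to 0.22 to 2.01 TPM in in9 and 0.99 to 1.39 TPM in LV2. The sum over all 14 was 68.2 to 78.9 TPM in in9 and 54.8 to 59.1 TPM in LV2. Mean levels of Cd68 (37.6 TPM in in9, 28.2 in LV2) and S100a8 (20 and 8.19) were higher in in9, while Cd14 (16.4 and 19) was lower. None of these was called, but without in9 replicate 1 Cd68 was called higher (adjusted p = 0.0153 in limma), as were 6.77% of all tested genes. The sum over 8 fibroblast markers, nearly all of it Pdgfra with Lum listed at 0, was 7.95 to 8.43 TPM in in9 and 4.74 to 6.76 TPM in LV2. The part of these markers in the results was not tested. In a bulk sample, fewer cells that express a gene and less RNA of it per cell cannot be told apart.

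Colony-stimulating factors are secreted glycoproteins that drive the growth, survival and release of myeloid cells. Csf1 encodes M-CSF, which maintains macrophages, Csf2 encodes GM-CSF, which acts on granulocytes and macrophages, and Csf3 encodes G-CSF, which drives the production of neutrophils. The 4T1 tumour is known for the strong rise in neutrophils that it causes in mice. Interleukin-1 alpha and beta bind the same receptor, which recruits a shared accessory chain and signals through MyD88 to NF-kB, and the receptor antagonist encoded by Il1rn occupies that receptor without signalling.

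The microRNA named in the series could not be checked in these libraries, since mature microRNA is not measured by mRNA sequencing, and the precursor genes Mir9-1, Mir9-2 and Mir9-3 were listed at 0 in all 6 libraries. Its mature 5′ arm is shown with the matches that a search found in members' longest annotated 3′ UTRs, because the letters searched, ACCAAAG or CCAAAGA, are those that bases 1 to 8 of miR-9 can pair with. The sequences come from RefSeq (GRCm38.p6) for the microRNA and GENCODE M21 for the transcripts, and capitals mark the seed (bases 2 to 8) or the match. The last A of each match lies opposite base 1, outside the seed.
mmu-miR-9-5p: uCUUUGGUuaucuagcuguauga
Csf1, chr3:107742952-107742981, minus strand: ttagactctcaACCAAAGAgaaagggctgg
Il1r1, chr1:40317090-40317119, plus strand: aaattcctcacCCAAAGAatccaatatgcc
Counting the last A, the match in Csf1 has 8 bases and lies in 2 of its 4 protein-coding transcripts, and that in Il1r1 has 7 bases and lies in 1 of 2. Il1rap had no match in its longest 3′ UTR but a seed match in 2 of 4 transcripts. The other 7 members had none. Of the 10952 tested genes with an annotated 3′ UTR, 22.2% held a match. A match is a stretch of letters and not a shown binding site.

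The members spanned a wide range of levels. Csf3 was the most abundant at 525 ± 20.9 TPM in in9 and 429 ± 8.82 TPM in LV2 (SD, n = 3 each), rank 290 of 13406 tested genes by mean level. Il1a followed at rank 437, with 344 ± 15.8 TPM in in9 and 295 ± 9.86 TPM in LV2. Csf1, Csf2 and Il1rap came next in both groups, and the ranges of neighbours among these 5 genes did not overlap within either group. Below them, Il18 and Il1r1 overlapped in LV2 but not in in9. The order of Il1rn, Il33 and Il1b differed between the groups, and their ranges overlapped within each group, except that all LV2 values of Il33 lay below all LV2 values of Il1b.

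**Figure D1:**
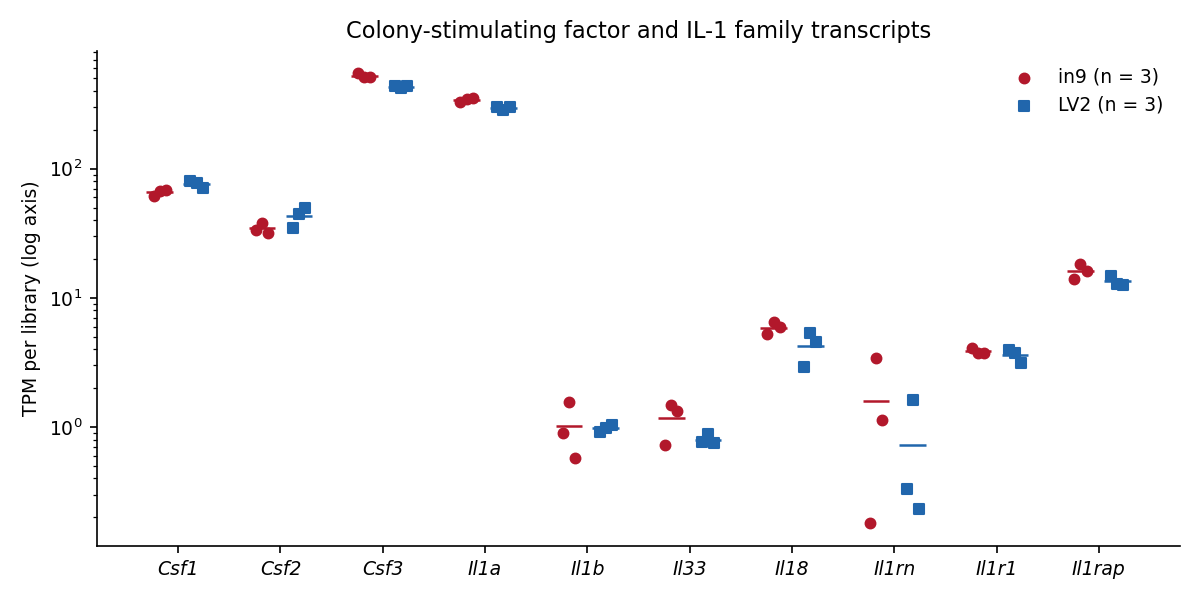
TPM of the 10 members in each library on a log axis, with in9 as circles and LV2 as squares and a bar at the mean of 3 libraries. Csf3 and Il1a stand above all others, Il1b, Il33 and Il1rn lie near 1 TPM, and the spread is widest for Il1rn.

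A gene was tested when its mean over the 6 libraries reached 1 TPM, and 8 of the 10 members did. Il1b and Il33, with means of 0.995 and 0.988 TPM, did not, and Il1rn, with 1.16 TPM, passed through its in9 values. In the fit over all genes (limma on log2(TPM + 1), two-sided, Benjamini-Hochberg adjusted), 1 of the 8 members was called higher in in9 at an adjusted p under 0.05 and 0 were called lower. Over all 13406 tested genes 0.821% were called higher and 0.194% lower. Without adjustment, 2 members were higher and 1 was lower at p under 0.05, where 13.6% and 5.86% of all tested genes were. The 8 members had a median log2 fold change of 0.24, where all tested genes had 0.06. Trimmed-mean scaling moved these medians to 0.17 and 0.00. Of the 8, 2 had all in9 libraries above all LV2 libraries and 1 had all below, which held for 17.4% and 8.08% of all tested genes.

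Csf3 was the member that passed the test. Its levels were 548.74, 509.88 and 515.89 TPM in in9, against 434.76, 419.2 and 434.18 TPM in LV2. Every in9 library lay above every LV2 library, with in9 replicate 1 the highest. The log2 fold change was 0.29 ± 0.04 (SE), with a 95% interval of 0.19 to 0.39 and an adjusted p of 0.0453 in limma, a 1.22-fold difference on the log2(TPM + 1) scale. The call was close to the threshold: after trimmed-mean scaling the change was 0.22 with an adjusted p of 0.156. It was called without in9 replicate 1 (adjusted p = 0.0163), where 6.77% of all tested genes were called higher and 3.68% lower. Leaving out any other single library gave adjusted p-values of 0.152 (in9 replicate 2), 0.175 (in9 replicate 3), 0.125 (LV2 replicate 1), 0.215 (LV2 replicate 2) and 0.175 (LV2 replicate 3) with changes of 0.27 to 0.31. Csf3 lies on chromosome 11, positions 98701263 to 98703629 on the plus strand (mm10), and no other gene in GENCODE M21 overlaps it.

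Csf1 and Csf2 did not pass the test, and their estimates were negative. Csf1 was at 61.53, 67.3 and 68.03 TPM in in9, against 79.87, 77.59 and 70.58 TPM in LV2. Every in9 library was below every LV2 library, though in9 replicate 3 and LV2 replicate 3 lay close together. The estimate was -0.21 ± 0.07 (SE) on the log2 scale, with an interval of -0.37 to -0.05 and an adjusted p of 0.172 in limma (0.0695 after trimmed-mean scaling). This gene, which holds the 8-base miR-9 match shown above, lies on chromosome 3, positions 107741048 to 107760469, on the minus strand. Csf2 was at 33.73, 38.09 and 31.64 TPM in in9, against 34.87, 44.23 and 49.54 TPM in LV2. The groups overlapped, through LV2 replicate 1, and the change was -0.30 ± 0.14 with an interval of -0.62 to 0.03 (adjusted p = 0.292 in limma). Csf2 lies on chromosome 11, positions 54247271 to 54249667, on the minus strand, and an annotated gene on its opposite strand, Gm12223, did not exceed 0.54 TPM.

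The 3 growth factors were also compared within each library, since a ratio of 2 genes does not depend on scaling between libraries. These ratios were chosen after the values were seen and were not tested. The ratio of Csf3 to Csf1 was 8.92, 7.58 and 7.58 in in9, against 5.44, 5.4 and 6.15 in LV2, so that the groups did not overlap. This had to follow, since Csf3 was higher and Csf1 lower in every in9 library than in every LV2 library. For Csf3 over Csf2 the groups did not overlap either, at 16.3, 13.4 and 16.3 in in9, against 12.5, 9.48 and 8.76 in LV2. The sum of the 3 factors was 615 to 644 TPM in in9 and 541 to 554 TPM in LV2, and most of it was Csf3 in every library. Among 7 such ratios, Il1a over Csf1 also separated the groups, at 5.3, 5.18 and 5.23 in in9, against 3.75, 3.66 and 4.28 in LV2. That too had to follow from the levels of Il1a and Csf1, which each separated the groups in opposite directions. Csf3 over Il1a overlapped, at 1.68, 1.46 and 1.45 in in9, against 1.45, 1.48 and 1.44 in LV2.

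**Figure D2:**
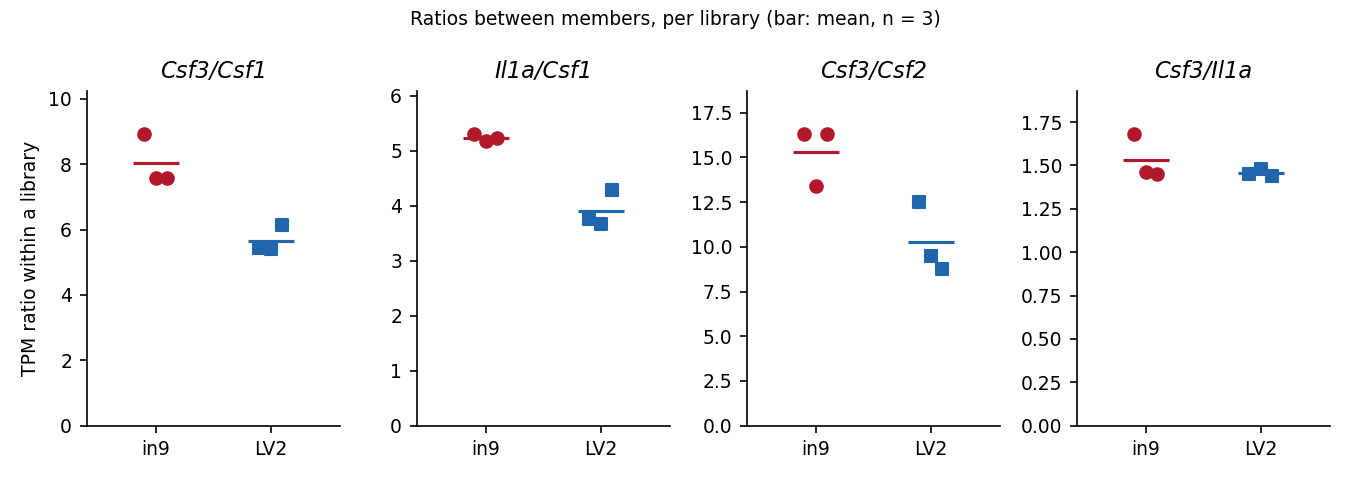
Ratio of the TPM of 2 members within each library, for 4 pairs, with in9 as circles and LV2 as squares and a bar at the mean of 3 libraries. The ratios of Csf3 and of Il1a to Csf1 and of Csf3 to Csf2 are higher in all in9 libraries, while Csf3 to Il1a overlaps near 1.45.

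The receptors for these factors were at or near 0. Csf3r and Csf2ra, the receptor for G-CSF and the binding chain for GM-CSF, were listed at 0 in all 6 libraries. The receptor gene Csf1r and the chains Csf2rb and Csf2rb2 did not exceed 0.11 TPM, and the 5 receptor genes together summed to 0.02 to 0.15 TPM in in9 and 0.01 to 0.1 TPM in LV2. Il34, which encodes a second ligand of the CSF1 receptor, was expressed at 20.9 ± 0.934 TPM in in9 and 23.6 ± 2.96 TPM in LV2 and was not called (log2 fold change -0.16 ± 0.10 SE, adjusted p = 0.404 in limma).

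**Figure D3:**
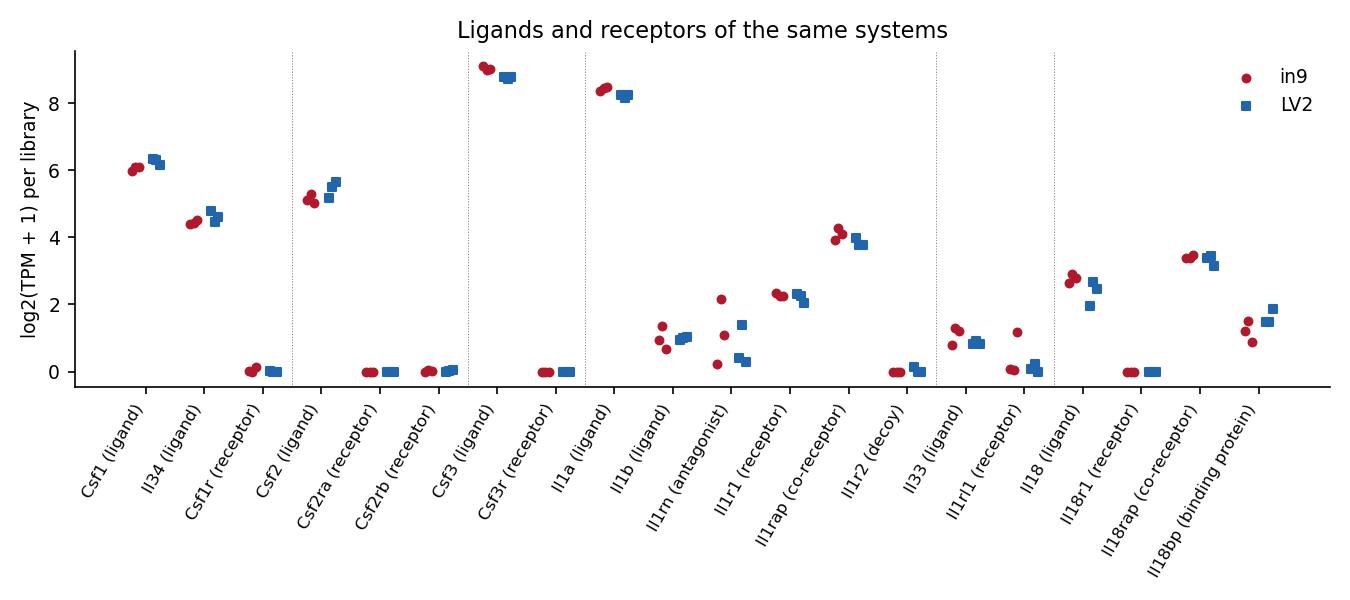
Level of ligands, receptors and binding proteins as log2(TPM + 1) in each library, with in9 as circles and LV2 as squares and dotted lines between systems. The ligands Csf1, Csf2 and Csf3 are high while their receptors lie at or near 0, and Il18rap is present where Il18r1 is at 0.

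Of the 4 cytokine genes of the interleukin-1 family, Il1a dominated. It encodes interleukin-1 alpha, which is active as a precursor and can act from the nucleus or the cell surface. Il1a was at 325.81, 348.87 and 356.08 TPM in in9, against 299.73, 284.12 and 302.36 TPM in LV2. All in9 libraries lay above all LV2 libraries, with in9 replicate 1 the nearest to LV2. The change was 0.22 ± 0.05 (SE), with an interval of 0.10 to 0.34, and missed the threshold (adjusted p = 0.0968 in limma). Without in9 replicate 1 Il1a was called (0.25 ± 0.04, adjusted p = 0.0248), where 6.77% of all tested genes were called higher. It was not called on leaving out any other single library. Trimmed-mean scaling gave 0.15 (adjusted p = 0.168).

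Il1b, the neighbour of Il1a, was close to the limit of the test. It encodes interleukin-1 beta, a precursor that caspase-1 cleaves for release, and was at 0.9, 1.56 and 0.58 TPM in in9, against 0.91, 0.99 and 1.03 TPM in LV2. The groups overlapped, and the in9 values enclosed those of LV2. Il1a exceeded Il1b in every library, by a ratio of 362, 224 and 614 in in9 and of 329, 287 and 294 in LV2. An annotated RNA on the opposite strand of Il1b, Il1bos, was at 0.72 to 1.31 TPM in in9 and 0.74 to 1.53 TPM in LV2. Without a stated strand, reads from any exon sequence that Il1bos and Il1b share cannot be told apart. How much they share was not examined. The genes lie on the minus strand of chromosome 2, Il1a at positions 129299610 to 129309972 and Il1b at 129364570 to 129371139, with 54597 bases between them. The stretches next to their starts, 70 bases before and 10 after, are shown because the 2 genes differ so widely in level. They come from RefSeq (GRCm38.p6), and capitals mark a TATA match (TATAAA) or an AP-1 match (TGANTCA).
Il1a, chr2:129309963-129310042, minus strand: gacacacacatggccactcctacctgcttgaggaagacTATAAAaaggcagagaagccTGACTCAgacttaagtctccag
Il1b, chr2:129371130-129371209, minus strand: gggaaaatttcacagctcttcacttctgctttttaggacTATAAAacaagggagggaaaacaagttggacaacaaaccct
Both hold TATAAA, at 32 to 27 bases before the start in Il1a and 31 to 26 in Il1b. The AP-1 match, at 12 to 6 bases before the start, is in Il1a and not in the promoter of Il1b. Such a match is a stretch of letters and not a shown binding site, and any part in these levels was not tested. Among 32851 promoters of 300 bases, searched on both strands, 13.6% held TATAAA and 7.81% TGANTCA. A kappaB match, 154 to 145 bases before the start in Csf1 and 232 to 223 before the second start in Il1r1, was found in promoters of Csf1 and Il1r1 and in 4.51% of all promoters. Promoters were found for 9 members, and that of Csf3 was not analysed here. Those of Csf2 (chr11:54249850-54250149) and Il18 (chr9:50554450-50554749) lay wholly before the GENCODE M21 starts of these genes. The bases next to those starts were therefore not searched.

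The other interleukin-1 family cytokines were low. Il18, whose product induces interferon gamma in lymphocytes, was at 5.23, 6.48 and 5.96 TPM in in9, against 2.91, 5.36 and 4.54 TPM in LV2. The groups overlapped only through in9 replicate 1 and LV2 replicate 2, and the change of 0.41 ± 0.20 (SE) had an interval of -0.06 to 0.88 (adjusted p = 0.305 in limma). Il33, whose product is a nuclear alarmin, was at 0.72, 1.48 and 1.33 TPM in in9, against 0.77, 0.88 and 0.75 TPM in LV2. Replicate 1 of in9 was the lowest of all 6, and the other in9 libraries were the highest. Without a filter on low values the change of Il33 was 0.26 ± 0.17 with an adjusted p of 0.624 in limma. Il18 lies on chromosome 9, positions 50554827 to 50581840, and Il33 on chromosome 19, positions 29925114 to 29960718, both on the plus strand. Of the other family ligands, Il1f6 (interleukin-36 alpha) was at 0.5, 0.51 and 0.32 TPM in in9, against 0.91, 1.6 and 0.64 TPM in LV2. All in9 libraries lay below all LV2 libraries, as in 8.08% of all tested genes, but its mean was below the limit of the test. Without a filter on low values the change of Il1f6 was -0.48 ± 0.19 with an adjusted p of 0.4 in limma. Il1f8 and Il1f9 did not exceed 0.2 TPM, and Il1f5 and Il1f10 were listed at 0 throughout.

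Il1rn, the antagonist, was the most variable member. It was at 0.18, 3.45 and 1.14 TPM in in9, against 0.33, 1.63 and 0.23 TPM in LV2. The highest library of each group was replicate 2, the ranges overlapped, and the interval of the change ran from -0.83 to 1.75 (0.46 ± 0.54 SE, adjusted p = 0.665 in limma). Without in9 replicate 2 the estimate was -0.03. Il1rn lies on chromosome 2, positions 24336853 to 24351494, on the plus strand.

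The signalling receptor was expressed at a low level and its accessory chain at a higher one. Il1r1 was at 4.06, 3.75 and 3.76 TPM in in9, against 3.93, 3.75 and 3.15 TPM in LV2. The ranges overlapped, with a change of 0.08 ± 0.12 (SE) and an interval of -0.21 to 0.37 (adjusted p = 0.748 in limma), and the estimate was -0.04 after quantile normalization. Il1rap, the chain that the receptors for interleukin-1 and interleukin-33 share, was at 14.12, 18.43 and 16.19 TPM in in9, against 14.79, 12.75 and 12.64 TPM in LV2. The groups overlapped through in9 replicate 1 and LV2 replicate 1, and the change was 0.26 ± 0.11 with an interval of -0.02 to 0.53 (adjusted p = 0.28 in limma). Il1r1 lies on chromosome 1, positions 40225080 to 40317257, and Il1rap on chromosome 16, positions 26581704 to 26730117, both on the plus strand. The decoy receptor gene Il1r2 did not exceed 0.1 TPM. The interleukin-33 receptor gene Il1rl1 was at or under 0.18 TPM in all libraries except in9 replicate 3, at 1.27 TPM. Il18rap, the accessory chain for interleukin-18, was at 9.7 ± 0.388 TPM in in9 and 9.06 ± 1.03 TPM in LV2, while Il18r1, its binding chain, was listed at 0 in all 6 libraries. Sigirr, an inhibitory family receptor, was at 48.71, 48.93 and 46.24 TPM in in9 and 48.89, 53.28 and 46.07 TPM in LV2. Of the 14 genes in this list of other family ligands, receptors and decoys, 4 were tested, none was called in limma in either direction and none had an unadjusted p under 0.05. The smallest p was that of Il18bp, which encodes the soluble binding protein of interleukin-18, at 1.34 ± 0.505 TPM in in9 and 2.07 ± 0.508 TPM in LV2 (adjusted p = 0.377 in limma).

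**Figure D4:**
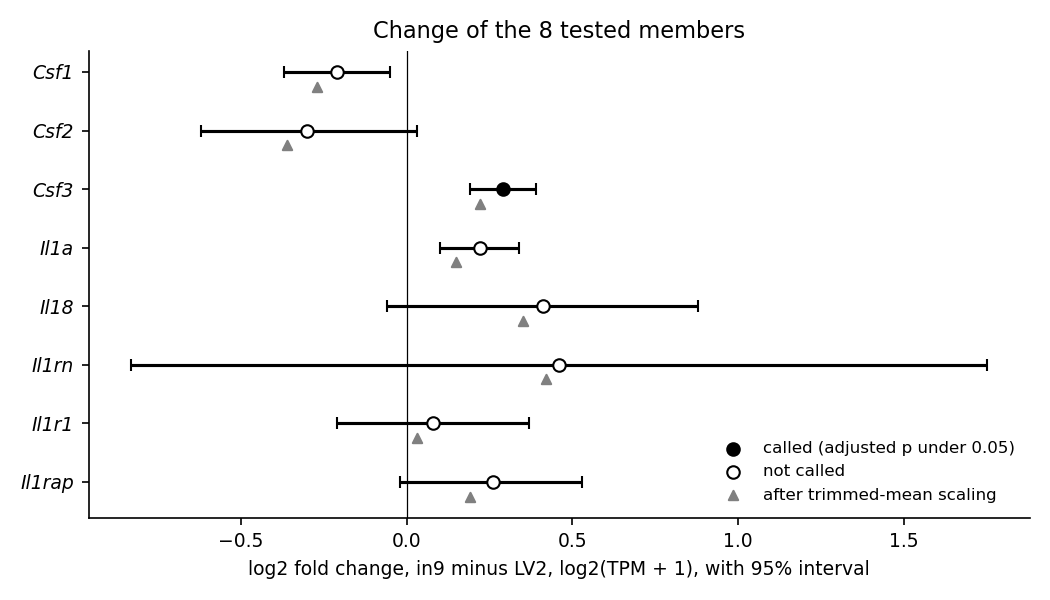
Log2 fold change of the 8 tested members, in9 minus LV2, on the log2(TPM + 1) scale with 95% intervals, and the estimate after trimmed-mean scaling as triangles. Csf3 at 0.29 is the called member, Csf1 and Csf2 lie below 0, and the interval of Il1rn is the widest.

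The AU-rich element, repeats of ATTTA in the 3′ UTR, marks many short-lived cytokine mRNAs for decay. It is shown for the 3 members with most copies per base and for Il1a, as a window of 30 bases dense in them, with ATTTA in capitals, from GENCODE M21.
Csf2, chr11:54247325-54247354, minus strand: taaatATTTATTTATTTATTTATTTAtttt
Csf3, chr11:98702988-98703017, plus strand: gtttATTTAtctctATTTAatATTTAtgca
Il1b, chr2:129364802-129364831, minus strand: cttacctATTTATTTAtgtATTTAttgatt
Il1a, chr2:129300103-129300132, minus strand: tctatgtATTTAtaaatatATTTAtgataa
Csf2 held 9 copies of ATTTA in a 3′ UTR of 317 bases and Csf3 held 6 in 669 bases. Per kilobase this was 28.4 in Csf2, 8.97 in Csf3, 8.71 in Il1b and 2.72 in Il1a. The median tested gene held 2 copies in 1167 bases. The 9-base element TTATTTATT was found in Csf2, with 4 copies counted with their overlaps, and in no other member, while 8.46% of tested genes held it. Il1rn held no ATTTA in 1864 bases. Csf2 and Csf3, the members with the most copies per base, had log2 estimates of opposite sign, but that of Csf2 was not called. Its interval ran from -0.62 to 0.03, and a part of AU-rich elements in these changes was not tested.

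Of 12 genes of factors that bind AU-rich elements or decay cytokine mRNA, all 12 were tested and 11 estimates were positive, as were 8543 of all 13406 tested genes. The median was 0.08 on the log2 scale against 0.06 over all tested genes, and trimmed-mean scaling moved it to 0.01 against 0.00. None was called in limma in either direction. With an unadjusted p under 0.05, 4 were higher and 0 lower, where 13.6% and 5.86% of all tested genes were. The smallest p was that of Tia1, which encodes a translational repressor, at 28.29, 39.65 and 42.78 TPM in in9 and 26.85, 24.75 and 22.71 TPM in LV2 (0.54 ± 0.16 SE, adjusted p = 0.144). Without in9 replicate 1 Tia1 (0.71), Zfp36l1 (0.41) and Zfp36l2 (0.25) were called higher, with adjusted p-values of 0.0175, 0.0279 and 0.0216. In that fit 6.77% of all tested genes were called higher and 3.68% lower. Leaving out any other single library called none of the 12. Zfp36l1 and Zfp36l2 encode relatives of the decay factor tristetraprolin.

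Downstream of the receptor, 20 of 22 genes from MyD88 to the TAK1 and IKK kinases were tested. None was called in limma in either direction, and the median change was 0.04 against 0.06 over all tested genes. At an unadjusted p under 0.05, 2 were higher and 1 was lower, where 13.6% and 5.86% of all tested genes were. Irak2, a kinase-like adaptor of the receptor complex, had the smallest p, at 20.59, 23.59 and 27.33 TPM in in9 and 14.8, 13.16 and 21.3 TPM in LV2 (0.53 ± 0.19 SE, adjusted p = 0.196). The groups overlapped through in9 replicate 1 and LV2 replicate 3. Without in9 replicate 1 the IKK scaffold gene Ikbkg was called (0.43 ± 0.06, adjusted p = 0.0248), where 6.77% of all tested genes were called higher. Leaving out any other single library called none of this list.

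The genes that process and release these cytokines were present in part. The inflammasome genes Pycard, Nlrp3, Nlrc4 and Nlrp1b did not exceed 0.47 TPM, and Casp1, the protease for the interleukin-1 beta and interleukin-18 precursors, was at 1.13 ± 0.427 TPM in in9 and 0.693 ± 0.0702 TPM in LV2, below the limit of the test. The inflammasome sensor gene Aim2, described further below, was at 0.63 to 3.32 TPM in in9 and 0.43 to 0.5 TPM in LV2 and was not called. Capn1, a calpain gene, had the smallest p of this list, at 84.12, 82.38 and 82.57 TPM in in9 and 73.05, 70.22 and 71.13 TPM in LV2. Calpains cut the interleukin-1 alpha precursor. The Capn1 groups did not overlap, and its change of 0.21 ± 0.04 (SE) missed the threshold (adjusted p = 0.0698 in limma). Of the 11 tested genes in this list of 16, none was called in either direction in limma. At an unadjusted p under 0.05, 2 were higher and 0 lower, where 13.6% and 5.86% of all tested genes were. The median change was 0.05, against 0.06 over all tested genes. Without in9 replicate 1 Capn1 (0.20, adjusted p = 0.0366) and the kinase gene Nek7 (0.29, adjusted p = 0.0421) were called higher and S100a13 (-0.28, adjusted p = 0.0491) lower. In that fit 6.77% of all tested genes were called higher and 3.68% lower. Leaving out any other single library called none of this list.

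Among 20 NF-kB genes known to respond to interleukin-1, 17 were tested, 6 were called higher and 0 lower, and the median change was 0.27, or 0.21 after trimmed-mean scaling. Over all tested genes 0.821% were called higher and 0.194% lower, with a median of 0.06, or 0.00 after that scaling. Of the 17 estimates 12 were positive, as were 8543 of all 13406 tested genes, and 5 were negative. The negative ones were Nfkbia (-0.03), Cxcl1 (-0.01), Zc3h12a (-0.01), Ptgs2 (-0.06) and Ccl20 (-0.25), none of them called. Tnfaip3 was at 0.00, so the list did not rise as a whole. The NF-kB list was drawn up with its changes known, so its count is no independent evidence. The 4 of this list with the smallest p were the metalloproteinase genes Mmp3 (log2 fold change 1.01 ± 0.04 SE) and Mmp13 (0.98 ± 0.08), the iron-carrier binding protein gene Lcn2 (1.05 ± 0.07) and the nitric oxide synthase gene Nos2 (1.22 ± 0.13), with adjusted p-values of 0.000658 to 0.025 in limma and each with a larger estimate than any tested member. The other 2, Il6 and Cxcl5, had adjusted p-values of 0.0351 and 0.0473 in limma. Leaving out 1 library in turn, these 6 calls all remained without in9 replicate 1. They became 2 without in9 replicate 2, 2 without in9 replicate 3, 3 without LV2 replicate 1, 2 without LV2 replicate 2 and 1 without LV2 replicate 3.

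The genes whose pattern over the 6 libraries was most like that of Csf3 were sought among 10563 genes with a mean of at least 5 TPM, by the root mean square distance between centred log2(TPM + 1) values. They were Galns (0.0171), which encodes a lysosomal sulfatase, Npc2 (0.0199), which encodes a lysosomal cholesterol carrier, Bag2 (0.0214), which encodes a co-chaperone, and Mvp (0.0233), which encodes the major vault protein. Npc2 was at 343.66, 326.31 and 328.1 TPM in in9, against 273.77, 269.64 and 283.48 TPM in LV2, and like Csf3 it was highest in in9 replicate 1. Their log2 fold changes were 0.29 for Galns, 0.27 for Npc2, 0.27 for Bag2 and 0.30 for Mvp. Npc2 and Mvp were called, with adjusted p-values of 0.0459 and 0.0473 in limma, but Npc2 lost its call under 9 and Mvp under 10 of 13 alternatives. Trimmed-mean scaling gave adjusted p-values of 0.168 for Npc2 and 0.106 for Mvp, and leaving out any single library other than in9 replicate 1 ended both calls. With 6 libraries and many genes such likeness is a description only.

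**Figure D5:**
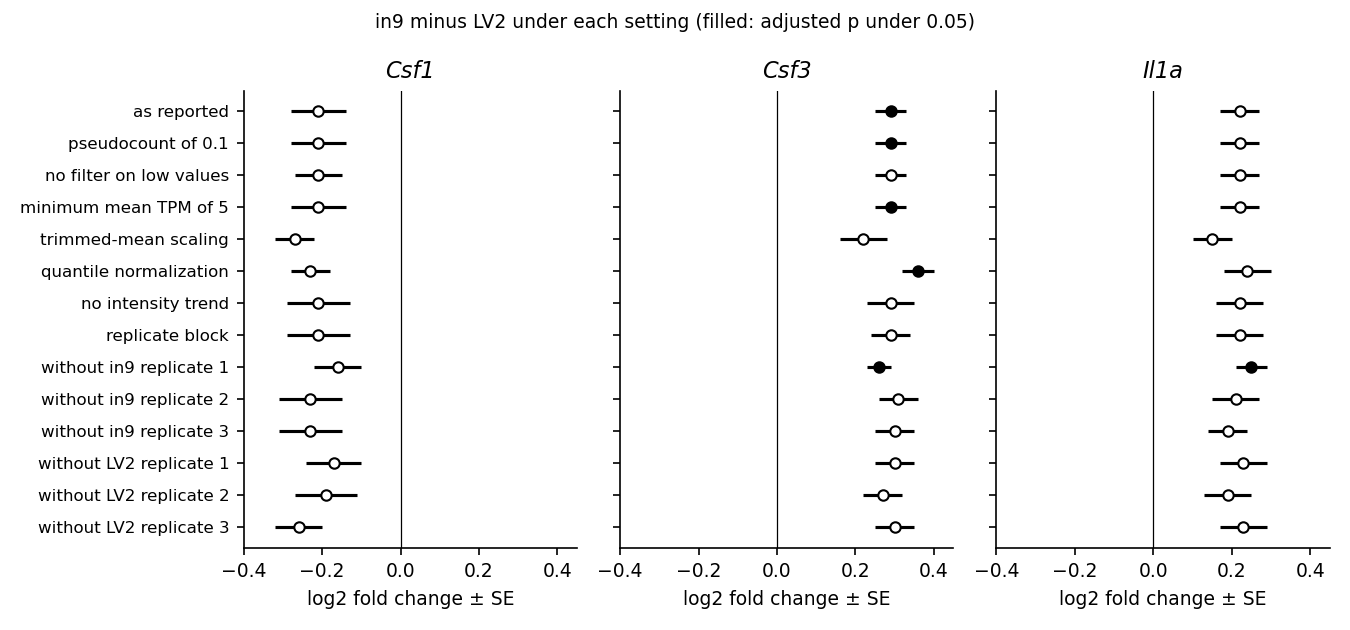
Log2 fold change of Csf1, Csf3 and Il1a, in9 minus LV2, with SE under each setting, where filled circles have an adjusted p under 0.05. The sign stays the same for these 3 genes under every setting plotted, while the call of Csf3 comes and goes and Il1a is called without in9 replicate 1.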

How the data were processed

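The deposited table held TPM values per gene and library as the authors computed them, with 2 group-mean columns and a gene length column, which was not used. The build was mm10, per the submitters' processing notes. Not given in the sources used here were the aligner, quantifier, annotation and strandedness. The design text speaks of a microarray and the extraction protocol of tissue, while the values are those of sequenced cell libraries. The mean columns matched means recomputed from the libraries, and no 2 libraries were identical. The members, the gene lists and the tests were chosen with earlier results of these data known. A minimum mean of 1 TPM was required, and log2(TPM + 1) was fitted in limma 3.58.1 (R 4.3.3) using an intensity trend and no replicate block, and p-values were Benjamini-Hochberg adjusted over all 13406 genes. The fit was tested on simulated data. Alternatives were a pseudocount of 0.1, no filter, a minimum mean of 5 TPM, quantile normalization, trimmed-mean scaling (trimming 30% of M values and 5% of A values), no trend, a replicate block and leaving out each library. Named were all members, in each of the 6 pathway lists the called genes (the 4 with the smallest p where more than 5 were called) and the gene with the smallest p, and the 4 genes most like a called member. Other listed genes, markers and the ratios were chosen after their values were seen. Positions and 3′ UTRs came from GENCODE M21, which matched 55227 of 56448 identifiers, and promoters and microRNAs from RefSeq (GRCm38.p6). Protein sequences were not used here. Tables were made with python 3.11.15 and pandas 2.3.3.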

Additional observations from a re-analysis of the deposited data

How the results depend on the processing

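Over all genes, 110 called higher and 26 called lower became 24 and 6 without a filter, 27 and 4 without an intensity trend and 1 and 1 with a replicate block. With a minimum mean of 5 TPM the lower count was 45. Leaving out 1 library gave 4 to 908 higher and 1 to 494 lower, with the highest counts without in9 replicate 1. The 1 member called higher, Csf3, was 0 without a filter, after trimmed-mean scaling, without a trend and with a replicate block, and 0 to 2 members were called on leaving out 1 library. The cause was not tested. No member was called lower under any of these 13 alternatives. In the 6 pathway lists the 6 genes called higher were 3 without a filter, 0 with a replicate block and 1 to 12 on leaving out 1 library, and 0 to 1 were called lower. Signs turned in 2 cases: Il1rn was -0.03 without in9 replicate 2 (range on leaving out 1 library -0.03 to 0.92) and Il1r1 was -0.04 after quantile normalization. Of 231 refits of 18 named genes 167 kept direction and side of the threshold, 60 lost the call, and 2 gained it. Libraries that share a replicate number did not deviate together over the tested genes as a whole (correlations of -0.097, 0.022 and -0.046). This cannot exclude a pairing that affects some genes, and the labels do not say whether the libraries are paired. Depth is unknown, and members near 1 TPM are limited by it.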

Other observations

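Il1rapl2, which encodes a receptor-like protein of the interleukin-1 family described mainly in the nervous system, was singled out after its values were seen. It was at 81.29, 94.07 and 76.01 TPM in in9, against 78.9, 83.98 and 97.84 TPM in LV2, above Csf1 in every library except LV2 replicate 1. It was not called (log2 fold change -0.05 ± 0.11 SE, adjusted p = 0.815 in limma). The gene spans positions 137570608 to 138846946 of chromosome X (mm10), and 9 annotated genes overlap it on the opposite strand. Aim2, which encodes a DNA sensor, was at 1.26, 0.63 and 3.32 TPM in in9, against 0.5, 0.45 and 0.43 TPM in LV2. Its mean of 1.1 TPM passed the filter through its in9 values, and it was not called (0.79 ± 0.37 SE, interval -0.09 to 1.66, adjusted p = 0.299 in limma). All in9 libraries lay above all LV2 libraries, as in 17.4% of all tested genes, and the highest was in9 replicate 3, the library in which Il1rl1 was also highest.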
